A study of Mus musculus with 3 samples.

Results

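The muscleblind-like genes Mbnl1 and Mbnl2 and the CELF genes Celf1, Celf2 and Celf4 encode RNA-binding proteins that set the splicing of other transcripts, and their own transcripts are alternatively spliced. All splicing events assigned to these 5 gene symbols were taken from the splicing tables of 3 mouse hippocampi. This gave 28 of 8727 events, in 5 of 4860 genes. Celf4 had 11 events, Mbnl1 and Celf2 had 6 each, Mbnl2 had 3 and Celf1 had 2. By type, 15 were skipped exons, 7 were alternative 3′ splice sites, 4 were alternative 5′ splice sites, 1 was a pair of mutually exclusive exons and 1 was a retained intron.

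Each library came from 1 wild type C57BL/6J mouse, labelled as 10 weeks old, into whose hippocampal CA1 region an adeno-associated virus (AAV9) had been injected. The virus carried CTG repeats in the 3′ UTR of an Egfp transgene, so that CUG repeats were transcribed. The groups were CUG300 + CWG-cPIP (300 repeats and a cyclic pyrrole-imidazole polyamide that binds CAG and CTG repeat DNA), CUG300 + vehicle (300 repeats, no polyamide) and CUG10 + vehicle (10 repeats, no polyamide). All 3 mice carried the virus, and RNA was taken 10 days after gene transfer from hippocampi in which not every cell need be transduced. With 1 mouse per group, no difference here can be checked against replicates, and a test on read counts sets 1 library against another rather than the conditions against each other.

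MBNL proteins bind YGCY motifs in RNA (Y is C or U) and are drawn onto expanded CUG repeats in myotonic dystrophy type 1 (DM1). CELF1, also called CUGBP1, acts against MBNL proteins at many shared target exons, while CELF2 and CELF4 are family members with strong expression in brain and neurons. MBNL proteins also act on their own pre-mRNAs: a 54-nt coding exon of MBNL1, with a counterpart in MBNL2, is skipped more when MBNL activity is high, and its inclusion favours a nuclear protein.

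The splicing unit is the percent spliced in (PSI), given as a fraction from 0 to 1: the share of the inclusion form after inclusion and skipping counts are each divided by the length over which a read can fall. For splice site events the inclusion form is the longer one. Brackets after a PSI hold its 95% Clopper-Pearson interval, and brackets after a PSI difference hold a 95% Newcombe interval. These intervals cover counting error only. Coordinates are on build mm10, counted from 1.

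The 54-nt and 95-nt exons are shown because they are the alternative exons that Mbnl1 and Mbnl2 share. On chromosome 3, plus strand, the Mbnl1 exons lie at 60614683-60614736 (54 nt), 60621423-60621458 (36 nt) and 60622146-60622240 (95 nt). The Mbnl2 exons lie on chromosome 14, plus strand, at 120395712-120395765 (54 nt) and 120404638-120404732 (95 nt). All are coding in GENCODE M21, from which the sequences were read. The 54-nt exons were identical at 46 of 54 positions (85.2%) and the 95-nt exons at 81 of 95 (85.3%). Capitals mark the bases that differ between the paralogs.
Mbnl1 54-nt exon: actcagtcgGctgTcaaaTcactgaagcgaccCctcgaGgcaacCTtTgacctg
Mbnl2 54-nt exon: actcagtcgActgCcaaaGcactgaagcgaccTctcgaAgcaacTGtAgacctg
Mbnl1 95-nt exon: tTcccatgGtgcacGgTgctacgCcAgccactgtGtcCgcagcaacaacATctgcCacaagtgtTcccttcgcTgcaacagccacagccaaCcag
Mbnl2 95-nt exon: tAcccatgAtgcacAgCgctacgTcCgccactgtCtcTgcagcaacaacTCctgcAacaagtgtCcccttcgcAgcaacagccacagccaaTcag

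The 36-nt exon of Mbnl1 and an 18-nt extension of a Celf2 exon (chromosome 2, minus strand, 6553965-6553982) are shown with capitals at YGCY motifs. Written as DNA the motif was TGCT, with T or C allowed as its first and as its last letter, and it was searched on the transcribed strand only.
Mbnl1 36-nt exon: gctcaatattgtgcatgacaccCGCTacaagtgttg
Celf2 18-nt extension: tTGCTcaaaTGCTctcag
The 36-nt exon held 1 motif, and 34.8% of annotated exons of that length held at least 1. The Mbnl1 54-nt exon held 0 motifs and its Mbnl2 counterpart held 1, where 49.1% of 54-nt exons held at least 1. The Mbnl1 95-nt exon held 4 motifs, as 4 or more did in 8.79% of 95-nt exons. The Mbnl2 95-nt exon held 2, and 40.9% of 95-nt exons held at least 2 (70.7% at least 1). Of the Celf2 regions searched, the 18-nt extension held 2, the 144-nt exon 3, and the 80-nt exon and the 12-nt extension 0. No share was computed for exons of these Celf2 lengths. Flanking introns were not searched, and a match is only a description of the letters.

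At the 7659 events counted in all 3 libraries, total counts were 560672 in CUG300 + CWG-cPIP, 567697 in CUG300 + vehicle and 609546 in CUG10 + vehicle. The median event had 24 counts in CUG300 + CWG-cPIP, 13 in CUG300 + vehicle and 22 in CUG10 + vehicle. The MBNL and CELF events took 2416 counts in CUG300 + CWG-cPIP, 1184 in CUG300 + vehicle and 1895 in CUG10 + vehicle. Only 12 of the 28 events had at least 20 counts in every library, and 10 had fewer than 10 counts in at least 1 library. All Mbnl1 events were among those 10. A table lists an event only where both forms were seen in the pair, so 16 of the 28 were listed in all 3 pairs and 26 had counts for all 3 libraries. Several events overlap and share reads, and the 28 events held 23 distinct alternative regions. Of these regions 18 were coding in at least 1 annotated transcript, 13 of them divisible by 3 in length. A further 3 lay only in a 3′ UTR and 2 were coding in part.

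The cell type markers of the CUG300 + vehicle hippocampus differed from those of the others. The summed event counts, scaled to a library total of 1000000 (CPM), of 6 neuron markers came to 10045 in CUG300 + CWG-cPIP, 2989 in CUG300 + vehicle and 9666 in CUG10 + vehicle, and all 6 were lower in CUG300 + vehicle than in CUG10 + vehicle. Microglia and immune markers summed to 5005 CPM in CUG300 + CWG-cPIP, 20053 in CUG300 + vehicle and 2869 in CUG10 + vehicle, with 7 of 7 higher in CUG300 + vehicle than in CUG10 + vehicle. B2m alone took the largest part of these sums, with 3417 CPM in CUG300 + CWG-cPIP, 11208 in CUG300 + vehicle and 1639 in CUG10 + vehicle. The choroid plexus markers Ttr and Enpp2 summed to 717 CPM in CUG300 + CWG-cPIP, 71285 in CUG300 + vehicle and 781 in CUG10 + vehicle. For 3 astrocyte markers the sum was 1266 CPM in CUG300 + CWG-cPIP, 1464 in CUG300 + vehicle and 663 in CUG10 + vehicle. Of these only Gfap was higher in CUG300 + vehicle than in CUG10 + vehicle (1402 and 518 CPM), while Fgfr3 had 47.6 CPM in CUG300 + vehicle and 130 in CUG10 + vehicle. For 4 oligodendrocyte markers the sum was 9763 in CUG300 + CWG-cPIP, 7317 in CUG300 + vehicle and 8770 in CUG10 + vehicle. Among them only Mag was higher in CUG300 + vehicle than in CUG10 + vehicle (1469 and 1129 CPM). The endothelial marker Pecam1 had 51.7 CPM in CUG300 + CWG-cPIP, 28.2 in CUG300 + vehicle and 44.3 in CUG10 + vehicle. No measured marker was at 0 in any library. In bulk tissue fewer cells of a type and less RNA per cell cannot be told apart, and the part of these marker differences in the values below was not tested.

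Mbnl1 had few reads. Its 54-nt exon, the one linked with nuclear localisation, was supported by 5 inclusion and 7 skipping counts in CUG300 + CWG-cPIP, 2 and 0 in CUG300 + vehicle, and 2 and 1 in CUG10 + vehicle. The PSI was 0.292 (0.0937 to 0.602) in CUG300 + CWG-cPIP, 1.0 (0.0979 to 1.0) in CUG300 + vehicle and 0.536 (0.0568 to 0.986) in CUG10 + vehicle. The point estimate was highest in CUG300 + vehicle, yet its interval holds both other values. The PSI difference between CUG300 + CWG-cPIP and CUG300 + vehicle was -0.708 (-0.878 to 0.104, exact p = 0.462, Fisher's test). That between CUG300 + vehicle and CUG10 + vehicle was 0.464 (-0.386 to 0.868, exact p = 1). A difference of the 54-nt exon of Mbnl1 in either direction was not detectable at this depth.

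The 36-nt and 95-nt exons of Mbnl1 lie next to each other and encode part of the C-terminal region. In CUG300 + CWG-cPIP, the library with most Mbnl1 reads, the 36-nt exon had a PSI of 0.729 (0.349 to 0.963) from 10 counts where the 95-nt exon followed it. The 95-nt exon had a PSI of 0.86 (0.483 to 0.996) from 15 counts where the 36-nt exon preceded it. In the mutually exclusive pair, the 36-nt exon alone took a PSI of 0.315 (0.0754 to 0.642) from 13 counts in CUG300 + CWG-cPIP. The Mbnl1 events at these 2 exons had 1 to 2 counts in CUG300 + vehicle and 2 to 4 in CUG10 + vehicle, so a difference was not detectable at this depth. All 5 skipped-exon and exclusive-exon events there lacked an exact p under 0.05 in each pair in which they were listed.

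Mbnl2 is the MBNL protein with the larger known role in brain splicing. Its 54-nt exon had 5 inclusion and 2 skipping counts in CUG300 + CWG-cPIP, 2 and 2 in CUG300 + vehicle, and 6 and 1 in CUG10 + vehicle. The PSI was 0.591 (0.191 to 0.938) in CUG300 + CWG-cPIP, 0.366 (0.0402 to 0.889) in CUG300 + vehicle and 0.776 (0.296 to 0.994) in CUG10 + vehicle. The lowest point estimate was that of CUG300 + vehicle, the library in which the same exon of Mbnl1 had its highest. All of these intervals overlap, for both paralogs, and a difference between the paralogs was not tested.

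The 95-nt exon of Mbnl2 had 30 inclusion and 4 skipping counts in CUG300 + CWG-cPIP, 2 and 3 in CUG300 + vehicle, and 5 and 3 in CUG10 + vehicle. Its PSI was 0.767 (0.536 to 0.928) in CUG300 + CWG-cPIP, 0.226 (0.0238 to 0.718) in CUG300 + vehicle and 0.422 (0.124 to 0.825) in CUG10 + vehicle. The library with the polyamide was highest, while CUG300 + vehicle rested on 5 counts and CUG10 + vehicle on 8. CUG300 + CWG-cPIP exceeded CUG300 + vehicle by 0.541 (0.112 to 0.757, exact p = 0.0321), and the adjusted exact p over 4916 skipped exons was 1. Against CUG10 + vehicle the difference was 0.345 (-0.0371 to 0.637, exact p = 0.113). The 95-nt length is not a multiple of 3, so inclusion and skipping leave different reading frames downstream.

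**Figure D1:**
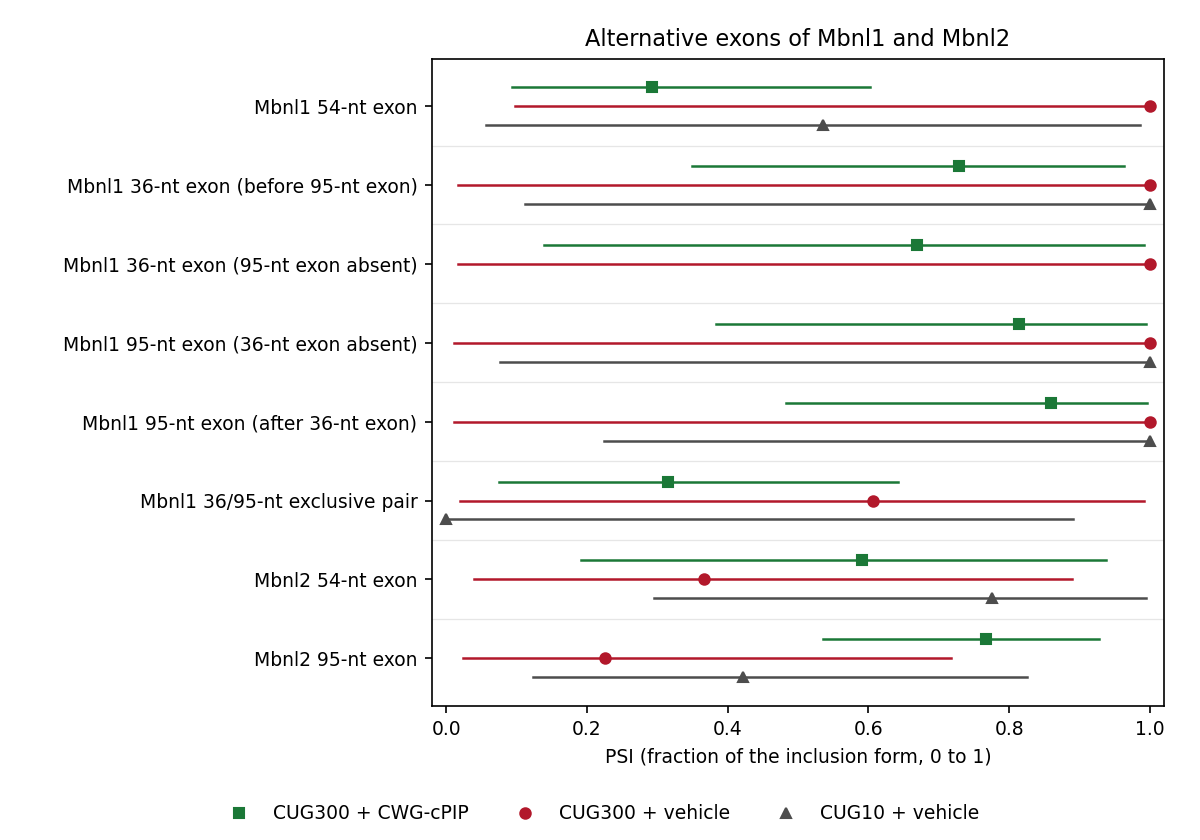
PSI (x axis, 0 to 1) of 8 events at the 54-nt, 36-nt and 95-nt exons of Mbnl1 and Mbnl2, with the 95% Clopper-Pearson interval of each library as a line. Most intervals span over 0.5 of the axis. The tightest rows are those of CUG300 + CWG-cPIP, such as the Mbnl2 95-nt exon at 0.767.

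A 619-nt exon of Mbnl2 (chromosome 14, 120324794-120325412), coding in part, was near fully included. Its PSI was 1.0 (0.873 to 1.0) from 240 counts in CUG300 + CWG-cPIP, 1.0 (0.597 to 1.0) from 53 counts in CUG300 + vehicle and 0.942 (0.743 to 0.998) from 154 counts in CUG10 + vehicle. A single skipping read, in CUG10 + vehicle, set it below 1.0. With 1 read added to each form the PSI difference between CUG300 + vehicle and CUG10 + vehicle was -0.0394, against 0.0577 without it. No exact p for this exon was under 0.05.

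Celf1 encodes the CUG-binding protein whose level rises in DM1. Its only deep event was an alternative 3′ splice site in the 3′ UTR that adds 3075 nt (chromosome 2, plus strand, 91013491-91016565). Skipping reads were 6 of 565 counts in CUG300 + CWG-cPIP, 5 of 430 in CUG300 + vehicle and 10 of 465 in CUG10 + vehicle. The PSI was 0.686 (0.5 to 0.857) in CUG300 + CWG-cPIP, 0.666 (0.459 to 0.861) in CUG300 + vehicle and 0.517 (0.366 to 0.692) in CUG10 + vehicle. Both libraries with 300 repeats had the higher point estimates, by 0.17 (-0.0683 to 0.376, exact p = 0.207) for CUG300 + CWG-cPIP and by 0.15 (-0.105 to 0.368, exact p = 0.303) for CUG300 + vehicle. Neither interval excludes 0. The other Celf1 event, a 152-nt exon, had 4 counts in CUG300 + CWG-cPIP and 3 in CUG10 + vehicle, and it was not listed with counts for CUG300 + vehicle.

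Celf2 is expressed in brain and heart and lies on chromosome 2, minus strand. Its 3′ UTR holds a 3′ splice site form longer by 1104 nt (6545676-6546779) and a retained intron of 1366 nt (6545676-6547041). The skipping form of both events is the same splice to the downstream acceptor, and the events share reads. For the splice site event, 3 of 274 counts were skipping reads in CUG300 + CWG-cPIP, 4 of 115 in CUG300 + vehicle and 1 of 202 in CUG10 + vehicle. The PSI was 0.85 (0.658 to 0.965) in CUG300 + CWG-cPIP, 0.635 (0.398 to 0.867) in CUG300 + vehicle and 0.927 (0.691 to 0.998) in CUG10 + vehicle. CUG300 + vehicle had the lowest point estimate, and the 3 intervals overlap.

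The PSI difference of this Celf2 splice site was 0.215 (-0.0521 to 0.468, exact p = 0.202) between CUG300 + CWG-cPIP and CUG300 + vehicle. Between CUG300 + vehicle and CUG10 + vehicle it was -0.291 (-0.534 to 0.00923, exact p = 0.06). The retained intron gave a PSI of 0.867 (0.688 to 0.969) in CUG300 + CWG-cPIP, 0.674 (0.442 to 0.885) in CUG300 + vehicle and 0.94 (0.736 to 0.998) in CUG10 + vehicle, from the same skipping reads. Its differences were 0.192 (-0.0539 to 0.438, exact p = 0.206) between CUG300 + CWG-cPIP and CUG300 + vehicle and -0.266 (-0.502 to 0.000542, exact p = 0.0533) between CUG300 + vehicle and CUG10 + vehicle. Because the inclusion forms are long, these PSI values turn on 1 to 4 junction reads and on the division by length. Without that division neither Celf2 event passed a difference of 0.15.

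Coding events of Celf2 were shallower. The 144-nt exon (6549832-6549975) had a PSI of 0.944 in CUG300 + CWG-cPIP, from 1 skipping read of 51, and 1.0 in both vehicle libraries. The 80-nt exon (6607882-6607961), whose skipping shifts the frame, had 1.0 in both CUG300 libraries. In CUG10 + vehicle it had 0.894 (0.684 to 0.986), from 2 skipping reads of 37. The 1.0 of CUG300 + vehicle rested on 11 counts (0.547 to 1.0). The 18-nt extension printed above was used about as often as not, at 0.464 (0.274 to 0.667) in CUG300 + CWG-cPIP, 0.547 (0.222 to 0.853) in CUG300 + vehicle and 0.508 (0.255 to 0.766) in CUG10 + vehicle. The 12-nt longer form of a 5′ splice site had 2 inclusion reads of 15 in CUG300 + CWG-cPIP, none of 4 in CUG300 + vehicle and none of 7 in CUG10 + vehicle. No exact p of these 4 events was under 0.05.

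Celf4, a neuronal CELF gene with known roles in excitability and seizure susceptibility in mouse, had the most events. It lies on chromosome 18, minus strand, and its alternative regions are all coding. The exon at 25491081-25491224 (144 nt, with a shorter form of 84 nt) was near fully included. Its long form had a PSI of 0.889 (0.725 to 0.976) in CUG300 + CWG-cPIP, 1.0 (0.83 to 1.0) in CUG300 + vehicle and 0.958 (0.798 to 0.999) in CUG10 + vehicle. The short form had 0.927 (0.807 to 0.984) in CUG300 + CWG-cPIP, 1.0 (0.891 to 1.0) in CUG300 + vehicle and 0.981 (0.899 to 1.0) in CUG10 + vehicle. The exon at 25537677-25537755 (79 nt, with a shorter form of 49 nt) was also near fully included. Its long form had 1.0 (0.93 to 1.0) in CUG300 + CWG-cPIP, 0.955 (0.784 to 0.999) in CUG300 + vehicle and 1.0 (0.909 to 1.0) in CUG10 + vehicle. The short form had 1.0 (0.912 to 1.0) in CUG300 + CWG-cPIP, 0.96 (0.803 to 0.999) in CUG300 + vehicle and 1.0 (0.9 to 1.0) in CUG10 + vehicle. Skipping of either exon rested on 0 to 3 reads per library.

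Within those exons the splice sites varied more. The 60-nt extension at the 5′ splice site (25491081-25491140) had a PSI of 0.28 (0.181 to 0.404) in CUG300 + CWG-cPIP, 0.247 (0.141 to 0.386) in CUG300 + vehicle and 0.166 (0.105 to 0.245) in CUG10 + vehicle. Both libraries with 300 repeats had the higher point estimates. The differences were 0.115 (-0.00419 to 0.242, exact p = 0.0712) for CUG300 + CWG-cPIP and 0.081 (-0.0409 to 0.221, exact p = 0.227) for CUG300 + vehicle, each against CUG10 + vehicle.

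The 30-nt extension at the other 5′ splice site of Celf4 (25537677-25537706) had 55 inclusion and 17 skipping counts in CUG300 + CWG-cPIP, 13 and 10 in CUG300 + vehicle, and 35 and 12 in CUG10 + vehicle. Its PSI was 0.697 (0.568 to 0.809) in CUG300 + CWG-cPIP, 0.481 (0.273 to 0.702) in CUG300 + vehicle and 0.675 (0.513 to 0.815) in CUG10 + vehicle. CUG300 + vehicle was lowest. The difference was 0.217 (-0.0127 to 0.429, exact p = 0.109) between CUG300 + CWG-cPIP and CUG300 + vehicle, and -0.194 (-0.419 to 0.0523, exact p = 0.172) between CUG300 + vehicle and CUG10 + vehicle. In transcripts joined to the next exon 3 nt further upstream, the same extension had a PSI of 0.833 in CUG300 + CWG-cPIP, 0.698 in CUG300 + vehicle and 0.909 in CUG10 + vehicle.

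That next exon of Celf4 begins at either of a pair of acceptors 3 nt apart (25505016-25505018), which adds or removes 1 codon. When it followed the 79-nt exon form, the 3-nt extension had a PSI of 0.306 (0.189 to 0.446) in CUG300 + CWG-cPIP, 0.49 (0.181 to 0.807) in CUG300 + vehicle and 0.37 (0.2 to 0.568) in CUG10 + vehicle. When it followed the 49-nt form, it had 0.22 (0.0754 to 0.444) in CUG300 + CWG-cPIP, 0.278 (0.0809 to 0.571) in CUG300 + vehicle and 0.138 (0.0171 to 0.418) in CUG10 + vehicle. In each of the 3 libraries the extension was used more after the longer form, although the intervals of the forms overlap in every library.

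**Figure D2:**
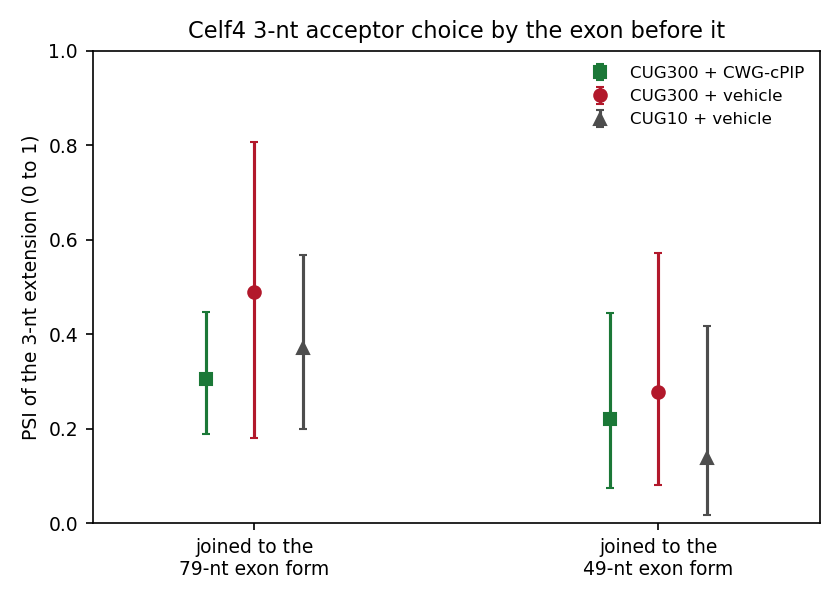
PSI (y axis, 0 to 1) of the 3-nt acceptor extension of Celf4, split by whether the preceding exon ended as its 79-nt or 49-nt form, with 95% Clopper-Pearson intervals. In each library the left point is the higher, for example 0.306 and 0.22 in CUG300 + CWG-cPIP, and the intervals overlap.

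Celf4 has further 3-nt acceptor choices. At 25503078-25503080 the extension was the major form, with a PSI of 0.788 (0.675 to 0.876) in CUG300 + CWG-cPIP, 0.82 (0.603 to 0.949) in CUG300 + vehicle and 0.75 (0.627 to 0.85) in CUG10 + vehicle. At 25496303-25496305 it was the minor form, with 13 inclusion and 55 skipping counts in CUG300 + CWG-cPIP, 0 and 27 in CUG300 + vehicle, and 9 and 46 in CUG10 + vehicle. The PSI there was 0.185 (0.102 to 0.296) in CUG300 + CWG-cPIP, 0 (0 to 0.123) in CUG300 + vehicle and 0.158 (0.0749 to 0.28) in CUG10 + vehicle.

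The choice at 25496303-25496305 of Celf4 was the event with the lowest unadjusted exact p in both pairs that hold CUG300 + vehicle. The PSI difference was 0.185 (0.044 to 0.292, exact p = 0.0168) between CUG300 + CWG-cPIP and CUG300 + vehicle, with an adjusted exact p of 0.727 over 768 events of this type. Between CUG300 + vehicle and CUG10 + vehicle it was -0.158 (-0.275 to -0.0176, exact p = 0.0266), with an adjusted exact p of 1 over 750 events. Both rest on the same 27 reads of CUG300 + vehicle, in which no inclusion read was seen. CUG300 + CWG-cPIP and CUG10 + vehicle differed by 0.0268 (-0.111 to 0.156, exact p = 0.814).

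**Figure D3:**
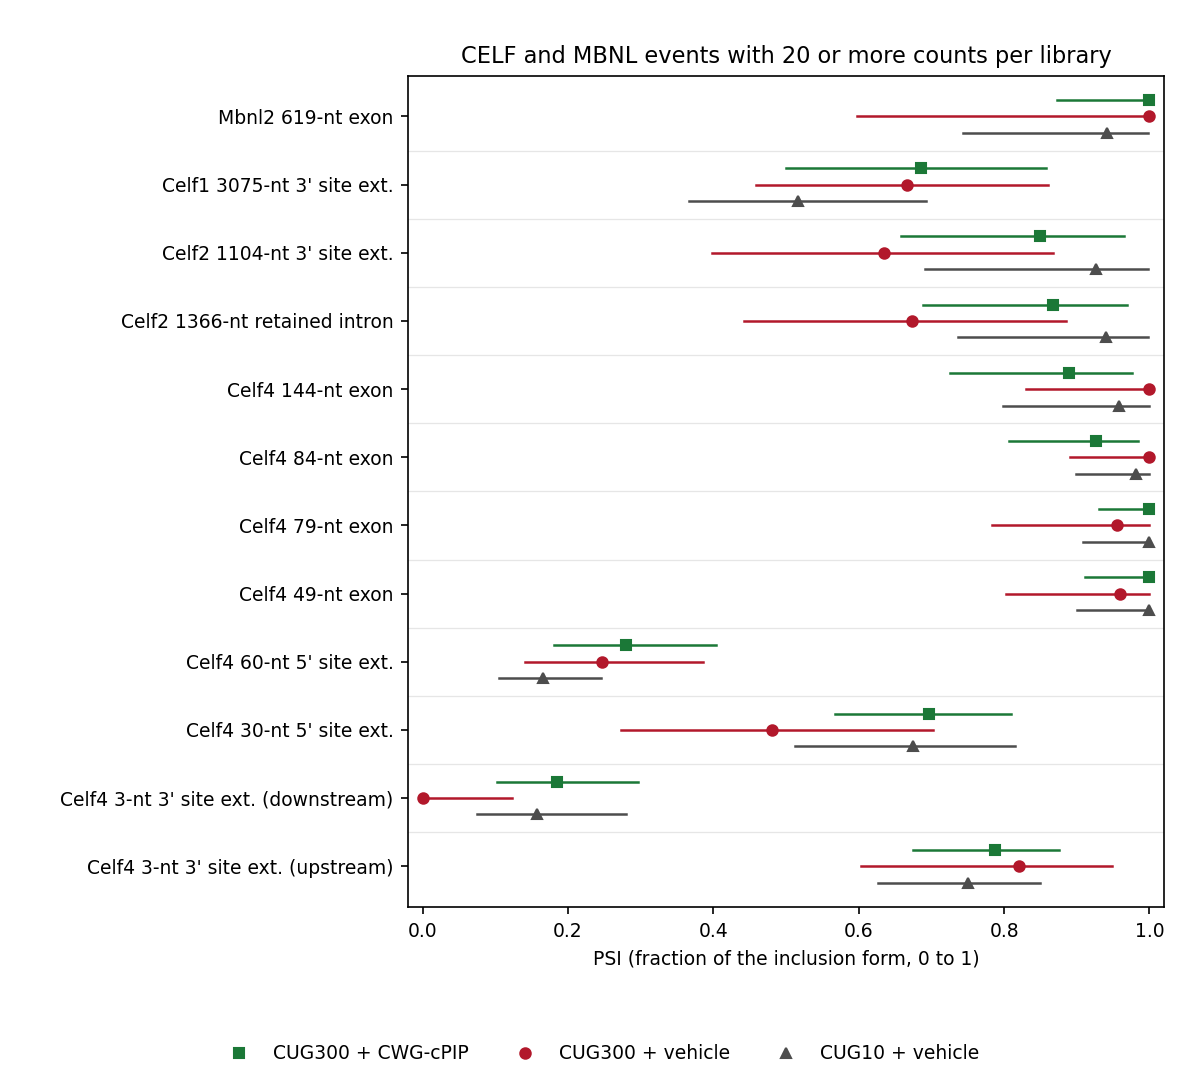
PSI (x axis, 0 to 1) of the 12 MBNL and CELF events with at least 20 counts in every library, with 95% Clopper-Pearson intervals. CUG300 + vehicle lies left of both other libraries at the Celf2 3′ UTR events, the Celf4 30-nt extension and the downstream Celf4 3-nt extension, and by less at the Celf4 79-nt and 49-nt exons.

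Counted over all MBNL and CELF events, none was called by Fisher's exact test with Benjamini-Hochberg adjustment within event type (adjusted p below 0.05 and a PSI difference above 0.15 in size). Between CUG300 + vehicle and CUG10 + vehicle this was 0 of 20 events, against 0.16% of all 6263 events, and 1 event had an unadjusted p under 0.05, as did 2.75% of all events. Between CUG300 + CWG-cPIP and CUG300 + vehicle it was 0 of 25, against 0.389% of all 6679 events, and 2 events had an unadjusted p under 0.05, as did 3.58% of all events. Between CUG300 + CWG-cPIP and CUG10 + vehicle it was 0 of 25, against 0.115% of all 6983 events, and 0 had an unadjusted p under 0.05, against 2.25% of all events. The counts of 0 lie close to these background shares.

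By size alone, 4 of 12 events (33.3%) with at least 20 counts in both libraries differed by more than 0.15 between CUG300 + vehicle and CUG10 + vehicle, against 9.34% of all 2526 such events. All 4 were lower in CUG300 + vehicle: the Celf2 pair in the 3′ UTR, the Celf4 30-nt extension and the Celf4 3-nt extension at 25496303-25496305. The events of the Celf2 pair share their skipping reads, so they are not separate observations, and neither passed without length normalisation. Between CUG300 + CWG-cPIP and CUG300 + vehicle the same 4 passed, of 11 (36.4%), all higher in CUG300 + CWG-cPIP, against 11.3% of all 2514 events. These comparisons share the CUG300 + vehicle library, so the second is no separate support for the first. Between CUG300 + CWG-cPIP and CUG10 + vehicle 1 of 14 (7.14%) passed, the Celf1 3′ UTR event, against 8.56% of all 3096 events.

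The median size of the PSI difference over the MBNL and CELF events was 0.0755 between CUG300 + vehicle and CUG10 + vehicle, against 0.0414 over all events of the same depth. It was 0.0733 against 0.0432 between CUG300 + CWG-cPIP and CUG300 + vehicle, and 0.0661 against 0.0468 between CUG300 + CWG-cPIP and CUG10 + vehicle. Just inside the size threshold stood the Celf4 3-nt extension (-0.158), and just outside it the Celf1 3′ UTR event (0.1497), both between CUG300 + vehicle and CUG10 + vehicle.

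**Figure D4:**
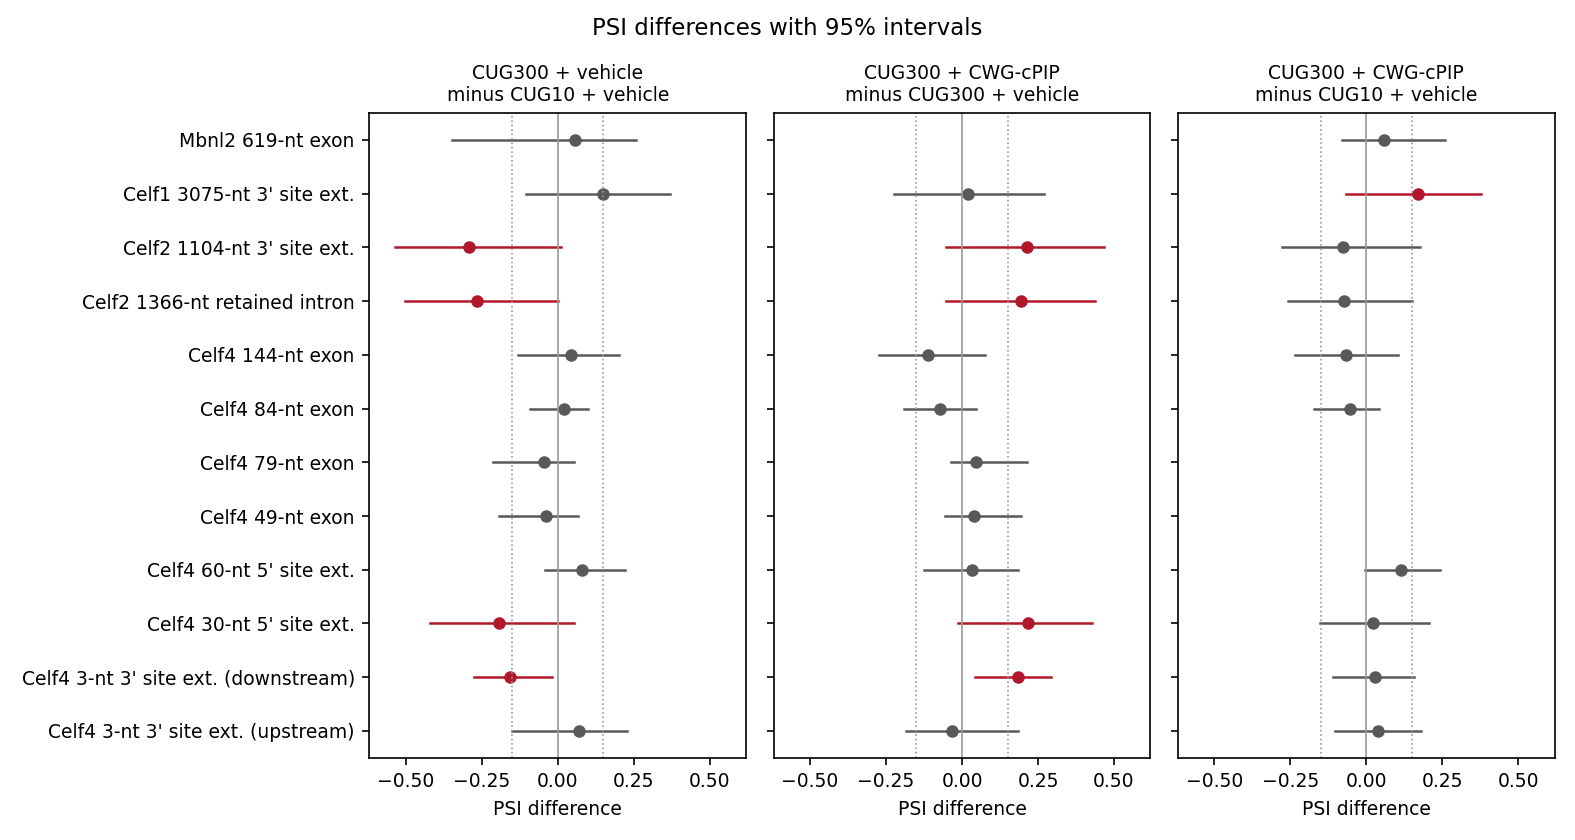
PSI difference (x axis) of the 12 MBNL and CELF events with at least 20 counts in every library, for the 3 pairs of libraries, with 95% Newcombe intervals and dotted lines at a difference of 0.15 in either direction. A panel holds only the events listed in its pair. The Mbnl2 619-nt exon is thus absent from the middle panel, and the Celf4 79-nt and 49-nt exons are absent from the right panel. Red marks the events past that size, 4 in the left panel (all negative), 4 in the middle panel (all positive) and 1 in the right panel, and in the left and middle panels only the downstream Celf4 3-nt extension has an interval that leaves out 0.

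The level of each gene was taken as its counts at events with counts for all 3 libraries, in CPM. It reflects reads at alternative events only, and since exon length and the number of events differ, levels are compared within a gene. Events of a gene that overlap share reads, so the intervals are too narrow for genes with several events. Mbnl1 had 109 CPM (83.2 to 140) in CUG300 + CWG-cPIP, 12.3 (4.96 to 25.4) in CUG300 + vehicle and 21.3 (11.4 to 36.5) in CUG10 + vehicle, with exact Poisson 95% intervals. Mbnl2 had 501 CPM (444 to 563) in CUG300 + CWG-cPIP, 109 (83.7 to 140) in CUG300 + vehicle and 277 (237 to 322) in CUG10 + vehicle. For Mbnl1, 4 of the 5 events behind these values were listed only in pairs that hold CUG300 + CWG-cPIP, the library in which they were high, so they entered the level through it. On the 1 Mbnl1 event listed in all 3 pairs the level was 44.7 CPM (23.1 to 78) in CUG300 + CWG-cPIP, 7.96 (0.964 to 28.8) in CUG300 + vehicle and 10.3 (2.12 to 30.1) in CUG10 + vehicle, and the intervals overlap. On the 2 Mbnl2 events listed in all 3 pairs it was 153 CPM (110 to 207) in CUG300 + CWG-cPIP, 35.8 (16.4 to 68) in CUG300 + vehicle and 51.5 (28.8 to 84.9) in CUG10 + vehicle, where the polyamide library overlapped neither vehicle library. The 95-nt exon gave most of this, with 34 counts in CUG300 + CWG-cPIP, 5 in CUG300 + vehicle and 8 in CUG10 + vehicle. The 54-nt exon had 7, 4 and 7 counts in the same order. This level is thus not separate from the inclusion reads behind the PSI of the 95-nt exon.

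Among the CELF genes, Celf2 had 1420 CPM (1323 to 1522) in CUG300 + CWG-cPIP, 565 (505 to 631) in CUG300 + vehicle and 997 (920 to 1080) in CUG10 + vehicle. Celf4 had 1272 CPM (1180 to 1369) in CUG300 + CWG-cPIP, 641 (577 to 711) in CUG300 + vehicle and 1050 (970 to 1135) in CUG10 + vehicle. Celf1 was the most even, with 1008 (926 to 1094) in CUG300 + CWG-cPIP, 757 (688 to 833) in CUG300 + vehicle and 763 (695 to 835) in CUG10 + vehicle.

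Relative to CUG10 + vehicle, CUG300 + vehicle had a level ratio of 0.394 (0.29 to 0.53) for Mbnl2, 0.567 (0.494 to 0.65) for Celf2, 0.611 (0.535 to 0.696) for Celf4, 0.578 (0.195 to 1.56) for Mbnl1 and 0.993 (0.869 to 1.13) for Celf1. The median ratio over 2078 genes with at least 100 counts was 0.741, with quartiles of 0.492 and 1.07. Mbnl2 lay below the lower quartile, though at 0.696 when only events listed in all 3 pairs were used, and Celf2, Celf4 and Celf1 lay inside the quartiles, while Mbnl1 did not reach 100 counts. The neuron markers had a summed ratio of 0.309 in this pair.

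For CUG300 + CWG-cPIP over CUG300 + vehicle the ratios were 8.82 (4.03 to 22.9) for Mbnl1, 4.59 (3.47 to 6.14) for Mbnl2, 2.51 (2.2 to 2.87) for Celf2, 1.98 (1.75 to 2.26) for Celf4 and 1.33 (1.17 to 1.51) for Celf1. The Mbnl1 ratio was 5.61 (1.25 to 51.6) with only the event listed in all 3 pairs and 15.2 (2.34 to 639) with only its deepest event. The median over genes was 1.41, with quartiles of 0.851 and 2.44, and the neuron markers had a summed ratio of 3.36. Over CUG10 + vehicle, the CUG300 + CWG-cPIP ratios were 5.1 (2.77 to 10.1) for Mbnl1, 1.81 (1.49 to 2.2) for Mbnl2, 1.42 (1.28 to 1.58) for Celf2, 1.21 (1.09 to 1.35) for Celf4 and 1.32 (1.17 to 1.5) for Celf1. With only the event listed in all 3 pairs, this Mbnl1 ratio was 4.34 (1.17 to 24), from 12 and 3 counts. In this pair the median over genes was 1.06, with quartiles of 0.847 and 1.33, and Mbnl2 and Celf2 stood above the upper quartile. The summed marker ratios in this pair were 1.04 for neurons (4 of 6 higher), 1.91 for astrocytes (3 of 3 higher) and 1.74 for microglia and immune cells (6 of 7 higher), and their part in the levels was not tested. Most of the immune sum was B2m, with 3417 CPM in CUG300 + CWG-cPIP and 1639 in CUG10 + vehicle. Among the neuron markers, Camk2a had 669 CPM in CUG300 + CWG-cPIP and 281 in CUG10 + vehicle. For Celf4 this last ratio was 0.838 (0.623 to 1.12) when only its deepest event was used.

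**Figure D5:**
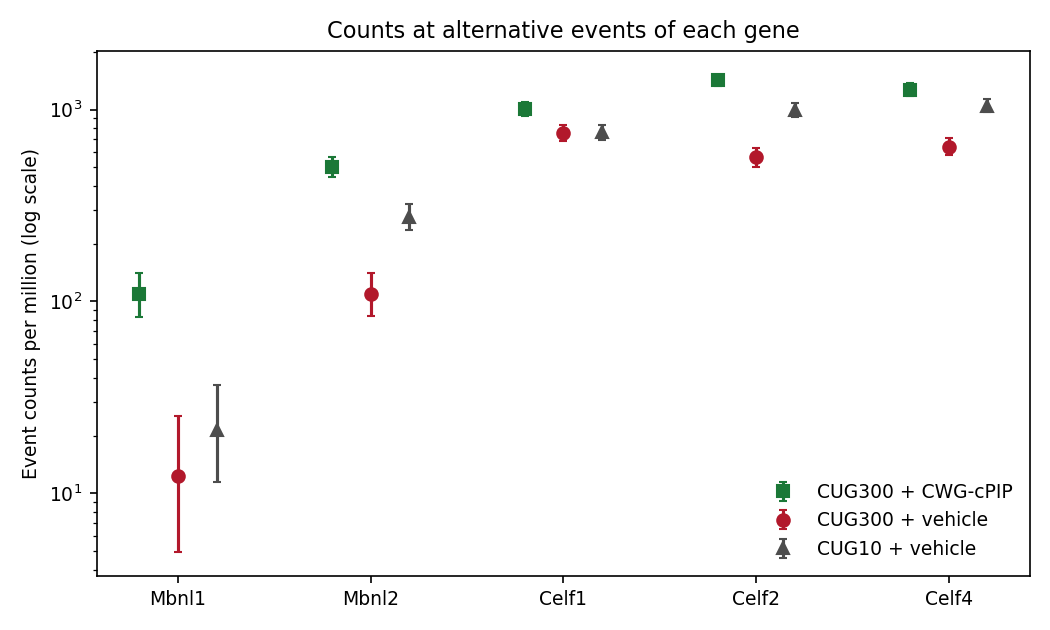
Counts at the alternative events of each gene in CPM (y axis, log scale), by library, with exact Poisson 95% intervals. CUG300 + CWG-cPIP is highest for all 5 genes, from 109 CPM for Mbnl1 to 1420 for Celf2. An exception is Celf4 against CUG10 + vehicle when only its deepest event is used (ratio 0.838). Most Mbnl1 events plotted were listed only in pairs that hold CUG300 + CWG-cPIP. On the 1 Mbnl1 event listed in all 3 pairs its level there is 44.7 CPM (23.1 to 78), and the intervals of the libraries overlap. Celf1 differs least between libraries.

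Of the 4 paralogs Mbnl3, Celf3, Celf5 and Celf6, Celf3 alone had listed events. It had 4 events between CUG300 + vehicle and CUG10 + vehicle and 7 in each other pair. None was called by the exact test, against 0.16% of all events in that pair. The share was 0.389% between CUG300 + CWG-cPIP and CUG300 + vehicle and 0.115% between CUG300 + CWG-cPIP and CUG10 + vehicle. By size, 1 of 1 Celf3 event with at least 20 counts passed in the former pair and 1 of 6 (16.7%) in the latter, both higher. The shares over all events were 11.3% and 8.56%. A list of 30 MBNL and DM1 brain target genes had 55 events in 24 genes between CUG300 + vehicle and CUG10 + vehicle. Of these 0 were called by the exact test, against 0.16% of all events. Their lowest adjusted exact p was 0.0396, at a PSI difference not above 0.15 in size. The list had 68 events in 25 genes between CUG300 + CWG-cPIP and CUG300 + vehicle, with 1 called and higher, against 0.389% of all events. It had 78 events in 25 genes between CUG300 + CWG-cPIP and CUG10 + vehicle, with 0 called, against 0.115%. The 1 called was a 39-nt exon of Ndrg4, a cytoplasmic protein of brain and heart, at 0.948 in CUG300 + CWG-cPIP and 0.783 in CUG300 + vehicle (difference 0.17, 0.087 to 0.263, adjusted exact p = 0.00537). By size, 3 of 17 target events (17.6%) with at least 20 counts passed between CUG300 + vehicle and CUG10 + vehicle (2 higher, 1 lower), against 9.34% of all events. It was 5 of 23 (21.7%; 2 higher, 3 lower) between CUG300 + CWG-cPIP and CUG300 + vehicle, against 11.3%, and 2 of 32 (6.25%, both higher) between CUG300 + CWG-cPIP and CUG10 + vehicle, against 8.56%. The 3 lower events of the second pair were all of Grin1, an NMDA receptor subunit, and 2 of them were the same region (chromosome 2, 25292129-25292484) joined to different upstream exons. Grin1 was named here after its values were seen.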

How the data were processed

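Total RNA libraries were made with a directional kit. Per the labels, the submitters' processing notes name Trim Galore 0.6.6, STAR 2.7.9a, RSEM 1.3.3, DESeq2 1.36.0 and build mm10. The authors ran rMATS on each of 3 pairs of libraries and deposited 15 tables, 1 per event type and pair, with inclusion and skipping counts that include reads inside the alternative region. The deposited inclusion level is a fraction from 0 to 1, and it was recomputed here from the counts and form lengths (largest deviation 0.0005). The skipping form is 74 nt long in the deposited tables, which fits shorter reads than the study's methods give for its splicing libraries. This mismatch was not resolved, and it bears on every length-normalised PSI, most on the long 3′ UTR forms of Celf1 and Celf2. The authors' p-value, FDR and inclusion difference columns were not used.

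Events were matched across pairs by gene, strand and coordinates, and a library's counts were identical in 14737 of 14737 repeated entries. Fisher's exact test (scipy 1.17.1, two-sided) was adjusted (Benjamini-Hochberg) within event type and pair, over all listed events. Calls needed an adjusted p below 0.05 and a PSI difference above 0.15. The size threshold needed 20 counts in each library and is no test. Described singly were MBNL and CELF events with 20 counts in every library or past a threshold, and the shallower MBNL and CELF exons were added after their values were seen. Tests were tried on simulated data. Alternatives were other thresholds, count minimums, length normalisation, an added read per form and other event sets. The genes and lists were chosen with earlier results of these data known. Fragments carried no molecular identifiers. Gene expression tables were not used here.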

Additional observations from a re-analysis of the deposited data

How the results depend on the processing

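With 1 mouse per group no replicate could be left out. No paired analysis was possible because each group holds a single library. Under 15 alternatives the count of calls by the exact test stayed at 0. Those that changed only the PSI threshold or the length normalisation reused the same adjusted p. Its lowest value over the MBNL and CELF events was 0.727, so these could give no call. Under 66 of 66 alternatives the named PSI differences stayed inside their counting interval, though most of these intervals hold 0. The differences kept their sign in 65 of 66, and the exception was the Mbnl2 619-nt exon between CUG300 + vehicle and CUG10 + vehicle with 1 read added to each form (-0.0394). Without length normalisation the Celf2 splice site difference between CUG300 + vehicle and CUG10 + vehicle was -0.0298, against -0.291. That of Celf1 between CUG300 + CWG-cPIP and CUG10 + vehicle was 0.0109, against 0.17. Of 21 alternatives for the count past the size threshold, 11 stayed within 1.5 times. Between CUG300 + vehicle and CUG10 + vehicle the count was 2 of 12 with a threshold of 0.2, 8 of 20 with no minimum count and 2 of 12 without length normalisation, against 4 of 12. The shares over all events were 5.3%, 41.8% and 4%, against 9.34%. Between CUG300 + CWG-cPIP and CUG300 + vehicle the count was 2 of 11, 12 of 25 and 2 of 11 under the same alternatives, against 4 of 11. Over all events the shares were 6.17%, 42.7% and 5.25%, against 11.3%. Between CUG300 + CWG-cPIP and CUG10 + vehicle the count was 3 of 14 with a threshold of 0.1 and 0 of 14 with a threshold of 0.2. It was 7 of 25 with no minimum count and 0 of 14 without length normalisation, against 1 of 14. Over all events the shares were 20.7%, 4.04%, 38.8% and 3.84%, against 8.56%. Counting events that share reads once, an alternative chosen after seeing the data, gave 3 between CUG300 + vehicle and CUG10 + vehicle, 3 between CUG300 + CWG-cPIP and CUG300 + vehicle and 1 between CUG300 + CWG-cPIP and CUG10 + vehicle. Neither the number of merged events nor a share over all events was computed for it. These counts thus cannot be set against the shares above. With no minimum the added events are those of few reads, and length normalisation acts most on the long 3′ UTR forms. Of 45 alternatives for the level ratios, 41 stayed within counting error. With only events listed in all 3 pairs, Mbnl2 had a ratio of 0.696 for CUG300 + vehicle over CUG10 + vehicle and 2.97 for CUG300 + CWG-cPIP over CUG10 + vehicle. Mbnl1, with wide intervals, had 5.61 for CUG300 + CWG-cPIP over CUG300 + vehicle with only the event listed in all 3 pairs, and with only its deepest event 15.2 for that ratio and 0.268 for CUG300 + vehicle over CUG10 + vehicle. With only its deepest event, Celf4 had 1.29 for CUG300 + CWG-cPIP over CUG300 + vehicle and 0.838 for CUG300 + CWG-cPIP over CUG10 + vehicle, below 1. The cause of these shifts was not tested. Depth limits all comparisons of Mbnl1, and intervals cover counting error only.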
